A study of Mus musculus with 3 samples.

Results

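The guidance genes described here are those of the ephrins and Eph receptors, the semaphorins and plexins, the Slits and Robo receptors, and the netrins and Unc5 receptors. They were chosen by name, as the protein-coding mouse genes with symbols of these families, and 65 of the 52661 genes in each table were members, of 66 such symbols in the annotation (Ntn3 was not analysed here). The data are bulk RNA sequencing of 3 sorted mouse mammary populations, with 1 library for each, and the study asked about the differentiation of mammary epithelial stem cells. Per the labels, all 3 populations were PROCR-positive mammary epithelial cells from an EpCAM-positive gate with high CD49f. The CD36+ library came from CD36-positive, PDPN-negative cells given as Cdh5 positive, the double-negative library from cells negative for CD36 and PDPN and also given as Cdh5 positive, and the PDPN+ library from CD36-negative, PDPN-positive cells given as Cdh5 negative. No genotype, strain, age or number of mice is stated in the labels. Neither CD36 nor PDPN nor Cdh5 belongs to the guidance families.

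Guidance genes encode cues and receptors that were first described in growing axons and that also steer endothelial cells and epithelial branching. Ephrins are membrane ligands of the Eph receptor tyrosine kinases, and both partners can signal at a cell contact. Semaphorins act through plexins, in part with neuropilins as co-receptors, Slits act through Robo receptors, and netrins act through receptors that include the Unc5 family. In blood vessels ephrin-B2 is known as an arterial and EphB4 as a venous gene, while plexin D1 and Robo4 are known from endothelium. In the mouse mammary gland Slit and Robo genes are known for roles in basal cells and branching, and netrin-1 for a role in the end bud.

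Total estimated counts ranged from 51138993 to 67675778 per library. Although the labels name mammary epithelial cells, endothelial markers were high in both Cdh5-positive populations. The 15 listed, Robo4 among them, summed to 7763 in CD36+ cells, 5352 in double-negative cells and 159.7 in PDPN+ cells (CPM, counts relative to library size after TMM scaling), and all 15 reached 10 CPM in both Cdh5-positive libraries. In the PDPN+ library 5 of the 15 were under 1 CPM, and Robo4 had 0 counts. The 10 basal epithelial markers summed to 82.2 in CD36+ cells, 264 in double-negative cells and 5991 in PDPN+ cells. Between the CD36+ and double-negative libraries, 9 of them had 1 CPM in either, of which 2 (Krt5 and Lama3) were at least 2-fold higher in CD36+ cells and 5 lower. Krt14 stood at 0.186 CPM in CD36+ cells, 123 in double-negative cells and 1425 in PDPN+ cells, and Krt5 at 18.4 CPM in CD36+ cells, 3.03 in double-negative cells and 239 in PDPN+ cells. The 10 luminal markers summed to 525 in CD36+ cells, 419 in double-negative cells and 652 in PDPN+ cells. Single luminal markers differed in direction, since Foxa1 stood at 0.0169 CPM in CD36+ cells, 9.39 in double-negative cells and 0.0541 in PDPN+ cells and Pgr at 0.0169 CPM in CD36+ cells, 8.04 in double-negative cells and 0.189 in PDPN+ cells, while Esr1 stood at 39.1 CPM in CD36+ cells, 5.13 in double-negative cells and 13.7 in PDPN+ cells and Prlr at 35.6 CPM in CD36+ cells, 5.01 in double-negative cells and 10.4 in PDPN+ cells. The 10 fibroblast markers summed to 127 in CD36+ cells, 89.0 in double-negative cells and 767 in PDPN+ cells, and the 10 pericyte markers to 283 in CD36+ cells, 215 in double-negative cells and 114 in PDPN+ cells. Rgs5 led the pericyte sum, and the other 9 summed to 42.1 in CD36+ cells, 51.1 in double-negative cells and 62.1 in PDPN+ cells, in the opposite order. The 10 immune markers summed to 17.4 in CD36+ cells, 1.68 in double-negative cells and 7.34 in PDPN+ cells. The 10 Schwann and neural markers summed to 9.44 in CD36+ cells, 18.8 in double-negative cells and 73.2 in PDPN+ cells, with Sox10 at 64.6 CPM in PDPN+ cells. Sox10 led this sum, and the other 9 summed to 7.48 in CD36+ cells, 9.90 in double-negative cells and 8.59 in PDPN+ cells. The part of these other cells in the guidance gene values was not tested. In bulk RNA, fewer cells of a type and less RNA per cell cannot be told apart.

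Of the 65 guidance genes, 29 reached 10 CPM in at least 1 library, and 10 did so in all 3. By library, 18 reached 10 CPM in CD36+ cells, 18 in double-negative cells and 21 in PDPN+ cells, and the shares of all genes were not computed. Another 18 peaked between 1 and 10 CPM, and 18 stayed under 1 CPM everywhere. The members just above 10 CPM were Slit3, Unc5b and Plxna1, at up to 10.4, 11.4 and 11.6 CPM, and those just below were Plxna3 and Sema3g, at up to 9.40 and 9.22 CPM.

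Genes were called apart at a ratio of 4-fold or more, with 10 CPM or more in the higher of the compared libraries. In the CD36+ against the PDPN+ library, 17 of 27 guidance genes with 10 CPM in either library were apart, beside 32.7% of the 9387 genes of all kinds. Of these, 9 were higher in CD36+ cells (Robo4, Ntn1, Plxna2, Plxna4, Plxnd1, Sema3f, Sema6a, Sema6d and Sema7a), beside 15.1% of all genes, and 8 were lower (Epha7, Ephb1, Ephb2, Robo2, Slit2, Efna5, Efnb1 and Plxna1), beside 17.6%. With scaling by total counts the balance was 8 higher and 12 lower. In the double-negative against the PDPN+ library, 16 of 26 were apart, beside 34.2% of 9515 genes, with 6 higher (Robo4, Plxna2, Plxna4, Plxnb2, Plxnd1 and Sema6a; 14.9% of all genes) and 10 lower (Epha7, Ephb1, Ephb2, Ephb4, Robo1, Slit3, Efna5, Plxna1, Sema3c and Sema4d; 19.3%). Total counts gave 4 higher and 11 lower here, and upper quartile scaling 8 higher and 6 lower. These comparisons share the PDPN+ library. In the CD36+ against the double-negative library, 5 of 23 were apart, a share of 21.7% that lay near the 24.2% of 8968 genes overall. Ephb4, Ntn1 and Sema7a were higher (12.2% of all genes) and Robo2 and Efnb1 lower (11.9%) in CD36+ cells. With 1 library for each population no test was possible, and the differences compare these libraries. At a 2-fold line, 24 of 27 were apart in the CD36+ against the PDPN+ library, 12 higher and 12 lower, beside 53.4% of all genes (25.3% higher and 28.0% lower). In the double-negative against the PDPN+ library it was 20 of 26, 8 higher and 12 lower, beside 55.6% (25.4% higher and 30.2% lower). In the CD36+ against the double-negative library it was 12 of 23, 7 higher and 5 lower, beside 43.9% (22.9% higher and 21.0% lower). The median log2 ratio of the guidance genes was -0.72, -0.76 and 0.62 in the 3 comparisons in this order, against -0.02, -0.11 and 0.11 over all genes. By TPM over the same genes these medians of the guidance genes were -0.45, -0.93 and 0.43.

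**Figure D1:**
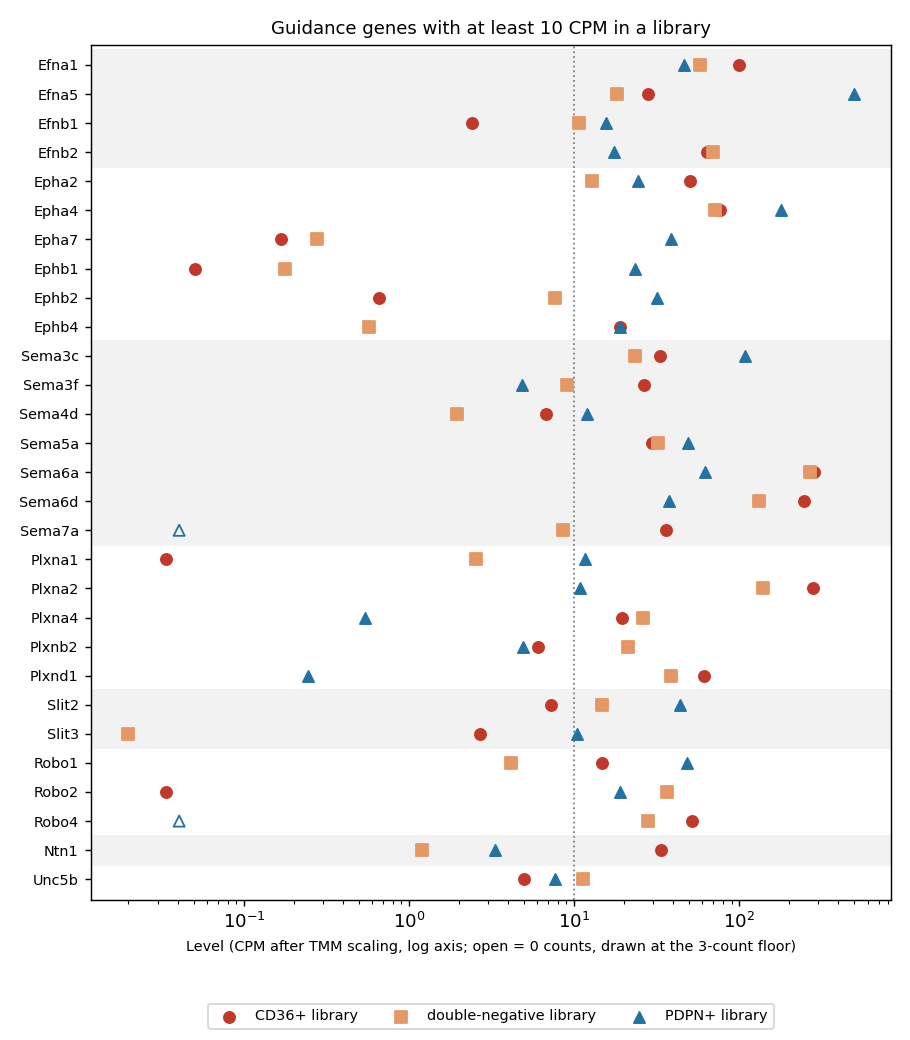
Level of each of the 29 guidance genes with at least 10 CPM in a library (rows, by family) in CPM after TMM scaling on a log axis, with 1 symbol per library and the dotted line at 10 CPM. Efna5 in PDPN+ cells is the highest point at 498 CPM, and Sema7a and Robo4 have 0 counts there, drawn open at the floor of 3 counts.

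The sequence before the start site is shown for 6 guidance genes, the 3 farthest apart each way between the CD36+ and PDPN+ libraries with at least 20 CPM in the higher one. Robo2 and Plxna1 were 565-fold and 344-fold lower in CD36+ than in PDPN+ cells but missed this level, at 19.1 and 11.6 CPM. The printed sequences are from RefSeq on GRCm38.p6, 5′ to 3′ on the gene's strand, the 250 bases before the outermost RefSeq start, except that Robo4 ends where the GENCODE M21 gene begins. The windows are Robo4 chr9:37401722-37401896 (plus strand), Sema7a chr9:57939862-57940111 (plus strand), Plxnd1 chr6:115995006-115995255 (minus strand), Ephb1 chr9:102354694-102354943 (minus strand), Epha7 chr4:28812881-28813130 (plus strand) and Ephb2 chr4:136836013-136836262 (minus strand). Capitals mark the motifs searched on both strands, the E-boxes CAGGTG and CAGCTG, the ETS-type letters CAGGAAG and CCGGAAG, and the GC box GGGCGG, so that a match on the other strand shows its reverse complement.
Robo4: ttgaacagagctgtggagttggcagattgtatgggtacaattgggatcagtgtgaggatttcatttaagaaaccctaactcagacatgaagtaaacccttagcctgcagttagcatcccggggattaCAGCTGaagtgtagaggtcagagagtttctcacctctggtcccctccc
Sema7a: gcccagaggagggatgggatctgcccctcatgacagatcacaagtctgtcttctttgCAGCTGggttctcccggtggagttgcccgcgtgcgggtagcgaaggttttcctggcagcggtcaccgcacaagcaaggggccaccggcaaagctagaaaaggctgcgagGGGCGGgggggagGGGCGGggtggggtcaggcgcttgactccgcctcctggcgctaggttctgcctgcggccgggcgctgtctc
Plxnd1: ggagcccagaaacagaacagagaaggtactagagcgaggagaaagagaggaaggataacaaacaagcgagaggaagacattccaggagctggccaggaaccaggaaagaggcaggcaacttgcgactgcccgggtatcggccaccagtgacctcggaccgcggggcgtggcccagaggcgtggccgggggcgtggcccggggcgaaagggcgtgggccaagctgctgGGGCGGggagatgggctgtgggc
Ephb1: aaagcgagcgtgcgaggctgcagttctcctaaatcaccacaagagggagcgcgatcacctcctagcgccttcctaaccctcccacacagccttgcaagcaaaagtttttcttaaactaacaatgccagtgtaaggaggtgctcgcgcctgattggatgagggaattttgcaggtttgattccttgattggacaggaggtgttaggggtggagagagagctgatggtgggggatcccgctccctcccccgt
Epha7: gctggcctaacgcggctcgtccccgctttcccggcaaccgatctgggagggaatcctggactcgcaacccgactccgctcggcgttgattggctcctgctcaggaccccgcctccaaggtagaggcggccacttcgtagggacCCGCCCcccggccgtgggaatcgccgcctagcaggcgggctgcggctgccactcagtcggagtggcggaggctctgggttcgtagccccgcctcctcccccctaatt
Ephb2: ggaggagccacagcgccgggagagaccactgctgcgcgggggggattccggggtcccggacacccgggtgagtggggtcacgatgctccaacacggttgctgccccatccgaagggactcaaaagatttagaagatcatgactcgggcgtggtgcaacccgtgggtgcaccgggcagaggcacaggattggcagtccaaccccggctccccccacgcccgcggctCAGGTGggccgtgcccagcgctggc

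A promoter was listed for 56 of the 65 guidance genes, and for 27025 genes in all. The 27025 genes were not filtered to protein-coding genes, while the guidance genes were. In the 250 bases before the start, GGGCGG was present in 40 of 56 guidance genes (71.4%), against 33.0% of all genes. CAGCTG was present in 10 of 56 (17.9%), against 12.7%, and CAGGTG in 8 (14.3%), against 17.1%. CAGGAAG was present in 7 (12.5%), against 10.5%, and CCGGAAG in 2 (3.57%), against 7.07%. Robo4 held CAGCTG at -123 and CAGGAAG at -50 from the RefSeq start, the second inside the annotated transcript and so outside the printed stretch, and Sema7a held CAGCTG at -193. Ephb2 held CAGGTG at -25, and Ephb1 held none of the letters searched. A match describes the letters in these windows and is not a binding site.

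Among the ephrin ligands, the A class differed most through Efna5. Efna5, a membrane ligand held by a lipid anchor (chr17:62604184-62881317, minus strand of mm10), stood at 27.9 CPM in CD36+ cells, 18.2 in double-negative cells and 498 in PDPN+ cells. It was the most abundant guidance gene of the PDPN+ library by TPM, at 200.01 TPM, a share of transcripts corrected for length. Its level was 17.8-fold (17.0 to 18.7) lower in CD36+ cells and 27.3-fold (25.6 to 29.2) lower in double-negative cells, where the brackets are 95% counting intervals. Efna1, an A-class ligand known to be induced by inflammatory cytokines in endothelium (chr3:89271733-89281142, minus strand), stood at 99.8 CPM in CD36+ cells, 58.3 in double-negative cells and 46.2 in PDPN+ cells. It was 2.16-fold (2.07 to 2.25) higher in CD36+ than in PDPN+ cells, and its direction between the double-negative and PDPN+ libraries turned with TPM (85.1, 54.2 and 55.2 TPM in CD36+, double-negative and PDPN+ cells). Efna3 and Efna4 lie 32.8 kb and a further 10.4 kb beyond Efna1 on chromosome 3. Both were low, Efna3 at most 1.18 CPM and Efna4 with at most 2 counts.

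The transmembrane B-class ligands took opposite sides. Efnb2, the arterial ephrin (chr8:8617434-8661242, minus strand), stood at 64.4 CPM in CD36+ cells, 69.5 in double-negative cells and 17.5 in PDPN+ cells. Both Cdh5-positive libraries lay above the PDPN+ library, by 3.67-fold (3.44 to 3.91) and 3.96-fold (3.72 to 4.23), just under the 4-fold line. Efnb1 (chrX:99136130-99148991, plus strand) stood at 2.42 CPM in CD36+ cells, 10.8 in double-negative cells and 15.6 in PDPN+ cells. The CD36+ library was low for Efnb1, 6.46-fold (5.43 to 7.74) below the PDPN+ and 4.46-fold (3.70 to 5.40) below the double-negative library. Efna2 reached 0.460 CPM at most and Efnb3 had at most 3 counts.

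Of the 14 Eph receptors, 9 reached 1 CPM in PDPN+ cells, 4 in CD36+ cells and 5 in double-negative cells. The share of all genes that reached 1 CPM was not computed. Genes of all kinds with any counts numbered 27492 in PDPN+ cells, 25851 in CD36+ cells and 27838 in double-negative cells. Epha4, which binds ephrins of both classes (chr1:77367185-77515088, minus strand), had the highest TPM of the receptors in every library (17.8, 16.3 and 49.2 TPM in CD36+, double-negative and PDPN+ cells) and stood at 76.4 CPM in CD36+ cells, 71.3 in double-negative cells and 179.5 in PDPN+ cells. It was 2.35-fold (2.27 to 2.43) lower in CD36+ and 2.52-fold (2.43 to 2.61) lower in double-negative cells, and the direction of the 1.07-fold gap between the CD36+ and double-negative libraries turned under total counts. Epha2, a receptor of ephrin-A1 (chr4:141301240-141329384, plus strand), stood at 50.2 CPM in CD36+ cells, 12.9 in double-negative cells and 24.3 in PDPN+ cells. Here the CD36+ library was highest and the double-negative library lowest, 3.89-fold (3.57 to 4.24) apart. Epha7 and Ephb1 had few counts in both Cdh5-positive libraries. Epha7 (chr4:28813131-28967499, plus strand) stood at 0.169 CPM in CD36+ cells, 0.277 in double-negative cells and 38.8 in PDPN+ cells, so it was 230.0-fold (125 to 480.1) lower in CD36+ and 140.1-fold (83.4 to 257) lower in double-negative cells. Ephb1 (chr9:101922128-102354693, minus strand) stood at 0.0507 CPM in CD36+ cells, 0.178 in double-negative cells and 23.5 in PDPN+ cells, with 3 and 9 counts in the CD36+ and double-negative libraries and 1736 in PDPN+ cells. The ratios were 463-fold (158 to 2248) and 132-fold (69.2 to 288). Some of its exon bases, 152, are shared with a gene on the other strand that had almost no counts.

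Ephb2, a receptor of B-class ephrins (chr4:136647539-136835988, minus strand), stood at 0.659 CPM in CD36+ cells, 7.66 in double-negative cells and 32.0 in PDPN+ cells, so that the double-negative library lay between the others. It was 48.5-fold (35.4 to 68.4) lower in CD36+ and 4.17-fold (3.74 to 4.66) lower in double-negative cells. By TPM these ratios were 120.1-fold and 15.1-fold. Ephb4, the venous receptor of ephrin-B2 (chr5:137350109-137378669, plus strand), stood at 18.9 CPM in CD36+ cells, 0.574 in double-negative cells and 19.0 in PDPN+ cells. The CD36+ and PDPN+ libraries were level, while the double-negative library held 29 counts, 32.9-fold (22.8 to 49.3) below the CD36+ library. Ephb4 differed between the Cdh5-positive libraries, while its ligand Efnb2 was 1.08-fold (1.03 to 1.13) apart there. Among receptors that stayed under 10 CPM, Ephb3 had 493 counts in PDPN+ cells and at most 4 in the others, and Epha1 had 190 counts in double-negative cells, 0 in CD36+ cells and 2 in PDPN+ cells. Epha5 and Epha10 peaked at 7.03 and 1.78 CPM. Epha3, Epha6, Epha8 and Ephb6 had at most 3 counts in any library.

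The class 6 transmembrane semaphorins Sema6a and Sema6d had the highest semaphorin TPM in both Cdh5-positive libraries. Sema6a, a ligand of A-type plexins (chr18:47235598-47368870, minus strand), stood at 286 CPM in CD36+ cells, 271 in double-negative cells and 62.6 in PDPN+ cells. It was 4.56-fold (4.42 to 4.72) higher in CD36+ and 4.33-fold (4.19 to 4.48) higher in double-negative cells than in PDPN+ cells. By TPM the first ratio was 3.52-fold, under the 4-fold line. Between the CD36+ and double-negative libraries its 1.05-fold gap turned direction under total counts and by TPM (63.6 against 97.3 TPM). Sema6d, which binds plexin A1 (chr2:124089969-124667770, plus strand), stood at 247 CPM in CD36+ cells, 132 in double-negative cells and 37.8 in PDPN+ cells, and was 6.54-fold (6.28 to 6.81) higher in CD36+ and 3.48-fold (3.33 to 3.64) higher in double-negative cells. Of the rest of the class, Sema6b had 417, 125 and 2 counts in CD36+, double-negative and PDPN+ cells, and Sema6c at most 2 counts.

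The secreted class 3 semaphorins were divided. Sema3c (chr5:17574281-17730268, plus strand) stood at 33.3 CPM in CD36+ cells, 23.3 in double-negative cells and 108 in PDPN+ cells, 3.25-fold (3.10 to 3.42) lower in CD36+ and 4.64-fold (4.37 to 4.94) lower in double-negative cells. Sema3f, which acts through neuropilin-2 (chr9:107681500-107710475, minus strand), stood at 26.4 CPM in CD36+ cells, 9.01 in double-negative cells and 4.85 in PDPN+ cells. Here the CD36+ library was highest, 5.44-fold (4.85 to 6.12) above the PDPN+ and 2.93-fold (2.64 to 3.26) above the double-negative library. By TPM the ratio to the PDPN+ library was 3.28-fold, under the 4-fold line. Sema3g, which is known from arterial endothelium and missed the 10 CPM line, had 546 counts in CD36+ cells, 55 in double-negative cells and 1 in PDPN+ cells. Sema3a, Sema3d and Sema3e peaked under 1 CPM. Sema3b, which lies 72.3 kb from Sema3f, had at most 2 counts.

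Sema7a, a lipid-anchored semaphorin that binds integrins (chr9:57940112-57962865, plus strand), stood at 36.2 CPM in CD36+ cells, 8.62 in double-negative cells and 0 counts in PDPN+ cells. Its ratio against the 3-count floor of the PDPN+ library was at least 893-fold for the CD36+ library and at least 212-fold for the double-negative library, and the CD36+ library lay 4.21-fold (3.79 to 4.67) above the double-negative library, or 3.84-fold by TPM. Being under 10 CPM in double-negative cells, Sema7a was not among the genes compared there with the PDPN+ library. Sema5a, a transmembrane member with thrombospondin repeats (chr15:32244810-32696341, plus strand), varied less than 2-fold by CPM over the libraries, at 29.7 CPM in CD36+ cells, 32.1 in double-negative cells and 48.9 in PDPN+ cells. By TPM it was 2.31-fold lower in CD36+ than in PDPN+ cells, at 3.21 against 7.40 TPM. Sema4d, the ligand of plexin B1 (chr13:51685529-51793747, minus strand), stood at 6.79 CPM in CD36+ cells, 1.96 in double-negative cells and 12.0 in PDPN+ cells, with the double-negative library 6.10-fold (4.95 to 7.58) below the PDPN+ library. By TPM it stood at 5.91, 5.16 and 6.33 in CD36+, double-negative and PDPN+ cells, values that lay closer together than by CPM. The ratio of the PDPN+ to the double-negative library was then 1.23-fold, under the 4-fold line. Of class 4 members under 10 CPM, Sema4a had 389, 27 and 11 counts in CD36+, double-negative and PDPN+ cells, and Sema4b had 141, 19 and 534. Sema4c had 70, 0 and 2 counts and Sema4g 1, 2 and 123 in the same order. Sema4f and Sema5b had at most 4 counts.

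Among the plexins, the semaphorin receptors, members lay far apart in both directions. Plxna2, a receptor of class 6 semaphorins (chr1:194618218-194816869, plus strand), stood at 282 CPM in CD36+ cells, 139 in double-negative cells and 10.9 in PDPN+ cells. It was 25.9-fold (24.2 to 27.9) higher in CD36+ and 12.8-fold (11.9 to 13.8) higher in double-negative cells than in PDPN+ cells, and by TPM the first ratio was 16.2-fold. Plxnd1, the plexin of vascular endothelium that binds Sema3e (chr6:115954811-115995005, minus strand), stood at 61.2 CPM in CD36+ cells, 38.9 in double-negative cells and 0.243 in PDPN+ cells, ratios of 252-fold (159 to 425) and 159.7-fold (101 to 270.0). By TPM the Plxnd1 ratios were 16.9 and 11.7, resting on 18 counts in PDPN+ cells. Plxna4 (chr6:32144268-32588192, minus strand) stood at 19.5 CPM in CD36+ cells, 26.3 in double-negative cells and 0.541 in PDPN+ cells, 36.0-fold (26.3 to 50.6) and 48.6-fold (35.5 to 68.3) higher than in PDPN+ cells. These 3 genes lay above the PDPN+ library in both Cdh5-positive libraries.

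Plxna1 went the other way, at 0.0338 CPM in CD36+ cells, 2.54 in double-negative cells and 11.6 in PDPN+ cells (chr6:89316314-89362620, minus strand). The CD36+ library held 2 counts of it, a ratio of 344-fold (94.9 to 2843) below the PDPN+ library, and the double-negative library lay 4.58-fold (3.80 to 5.56) below. Plxna1 shares 970 exon bases with Gm26811, an antisense gene that stood at 7.25 CPM in PDPN+ cells, so its reads cannot be told apart from that gene without a known strand setting. Plxnb2, a receptor of class 4 semaphorins (chr15:89155549-89180788, minus strand), stood at 6.05 CPM in CD36+ cells, 21.1 in double-negative cells and 4.89 in PDPN+ cells, with the double-negative library 4.31-fold (3.82 to 4.87) above the PDPN+ library. By TPM this ratio was 2.41-fold, under the 4-fold line. Its direction between the CD36+ and PDPN+ libraries turned under total counts. Under 10 CPM, Plxna3 had 695 counts in PDPN+ cells and 0 in both others, and Plxnb1, the Sema4d receptor, had 486 counts there, 0 in CD36+ cells and 3 in double-negative cells. Plxnb3 was even, at 151, 121 and 133 counts in CD36+, double-negative and PDPN+ cells, and Plxnc1 had at most 2.

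**Figure D2:**
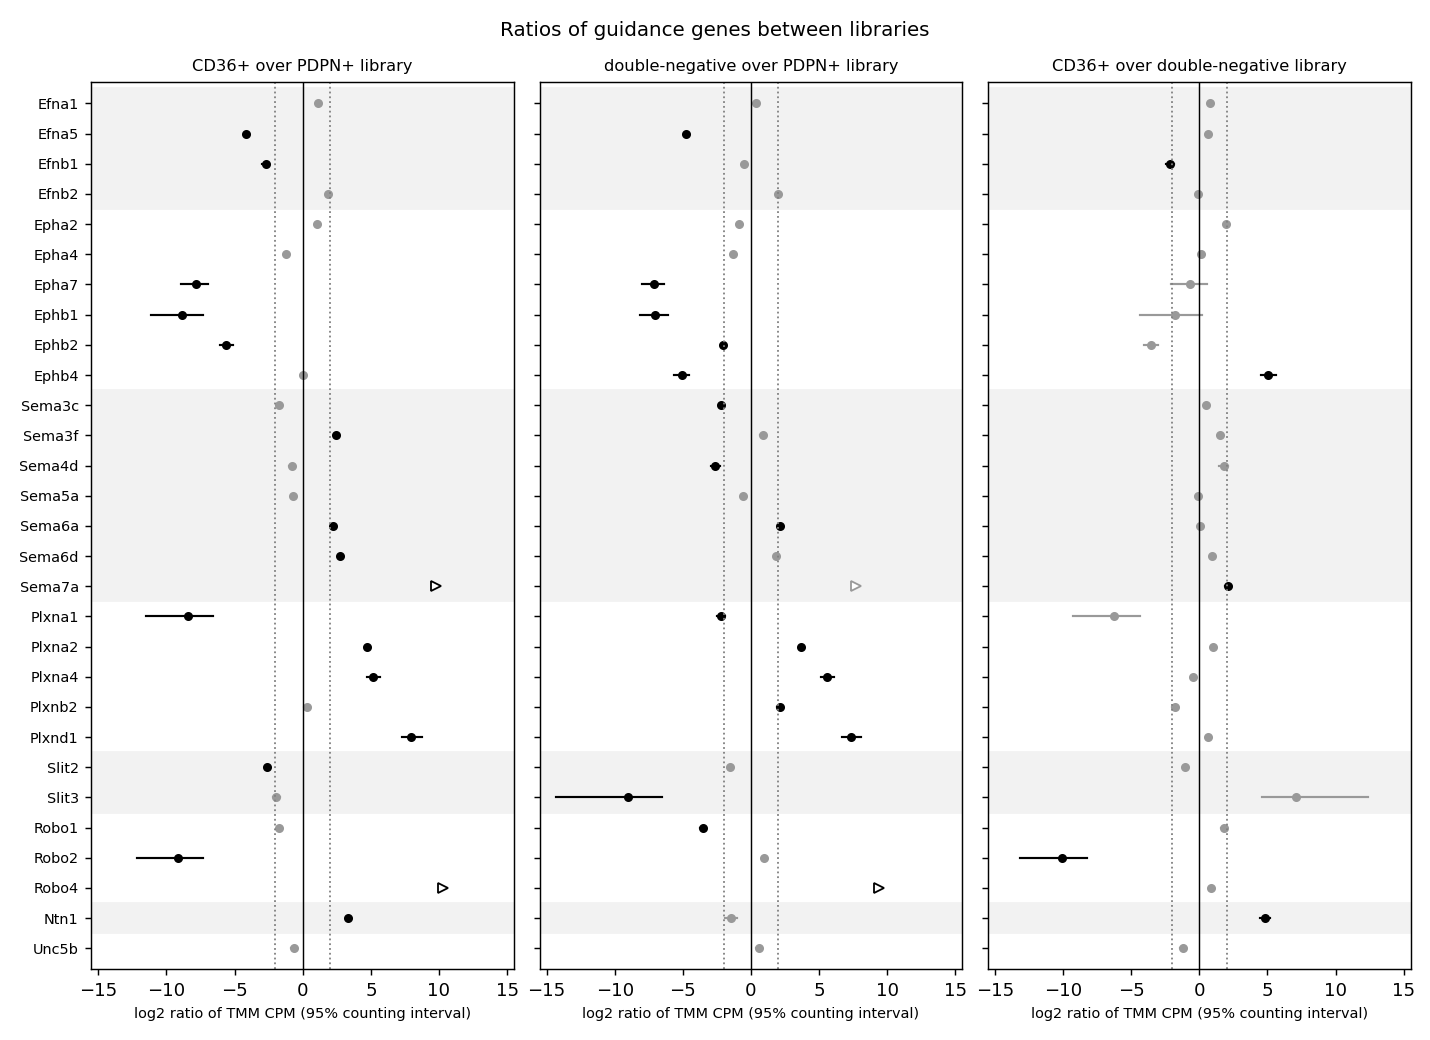
Log2 ratio of TMM-scaled CPM for the 29 guidance genes in the 3 comparisons, with 95% counting intervals as bars, dotted lines at 4-fold, and black marking genes at least 4-fold apart with at least 10 CPM in the higher library. Open arrowheads are lower bounds against 0 counts, as for Robo4 (at least 1281-fold, CD36+ over PDPN+).

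The Robo receptors had 3 different patterns over the libraries. Robo4, the endothelial Robo (chr9:37401897-37415115, plus strand), stood at 51.9 CPM in CD36+ cells, 27.9 in double-negative cells and 0 counts in PDPN+ cells. Against the 3-count floor of the PDPN+ library it was at least 1281-fold higher in CD36+ and at least 688-fold higher in double-negative cells, and it is itself one of the endothelial markers. Robo3, which lies on the minus strand 553 bases beyond the end of Robo4, had 1 count in each library. Robo1, a Slit receptor (chr16:72308306-73046095, plus strand), stood at 14.7 CPM in CD36+ cells, 4.14 in double-negative cells and 48.7 in PDPN+ cells, 3.31-fold (3.07 to 3.57) lower in CD36+ and 11.8-fold (10.2 to 13.6) lower in double-negative cells. By TPM the first ratio was 4.64-fold, past the 4-fold line. Robo2, also a Slit receptor (chr16:73891839-74411825, minus strand), had another pattern, at 0.0338 CPM in CD36+ cells, 36.8 in double-negative cells and 19.1 in PDPN+ cells. The CD36+ library held 2 counts, against 1856 in double-negative cells and 1412 in PDPN+ cells. These are ratios of 1088-fold (301 to 8991) below the double-negative and 565-fold (156 to 4671) below the PDPN+ library, and the double-negative library was 1.93-fold (1.80 to 2.06) above the PDPN+ library. 

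Slit2, a secreted Robo ligand (chr5:47983138-48307733, plus strand), stood at 7.23 CPM in CD36+ cells, 14.8 in double-negative cells and 43.8 in PDPN+ cells. It was 6.06-fold (5.47 to 6.71) lower in CD36+ and 2.95-fold (2.73 to 3.20) lower in double-negative cells than in PDPN+ cells. By TPM the second ratio was 6.84-fold, past the 4-fold line. By TPM the CD36+ and double-negative libraries were level, at 2.53 and 2.44 TPM, with the direction of the gap turned. Slit3 (chr11:35121224-35708507, plus strand) stood at 2.70 CPM in CD36+ cells, 0.0198 in double-negative cells and 10.4 in PDPN+ cells, the double-negative value being 1 count. It lay 3.85-fold (3.24 to 4.59) lower in CD36+ cells than in PDPN+ cells, and by TPM 9.28-fold lower, past the 4-fold line. Slit1 had at most 1 count.

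Ntn1, the secreted netrin-1 (chr11:68209364-68400823, minus strand), was highest in CD36+ cells, at 33.8 CPM in CD36+ cells, 1.21 in double-negative cells and 3.34 in PDPN+ cells. It was 10.1-fold (8.87 to 11.6) higher than in PDPN+ cells and 28.0-fold (21.7 to 36.8) higher than in double-negative cells. Ntn4, a netrin of basement membranes, peaked under 10 CPM with 457 counts in PDPN+ cells against 1 and 2 in the CD36+ and double-negative libraries, and Ntn5 had at most 2. Unc5b, the endothelial netrin receptor (chr10:60762593-60831581, minus strand), stood at 4.98 CPM in CD36+ cells, 11.4 in double-negative cells and 7.72 in PDPN+ cells, and no pair was 4-fold apart. Unc5a, Unc5c and Unc5d peaked at 6.30, 4.36 and 1.64 CPM. Of the other netrin receptors, Neo1 stood at 21.3 CPM in CD36+ cells, 12.7 in double-negative cells and 15.8 in PDPN+ cells and Dcc had 2, 3 and 69 counts in the same order.

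Levels were compared between genes by the deposited TPM. In the CD36+ library the order was Efna1 at 85.1, Sema6a at 63.6, Sema6d at 46.5, Robo4 at 41.9, Plxna2 at 36.5 and Plxnd1 at 23.7 TPM. In the double-negative library it was Sema6a at 97.3, Efna1 at 54.2, Robo4 at 38.6, Plxna2 at 27.1, Sema6d at 26.8 and Plxnb2 at 25.3 TPM. In the PDPN+ library it was Efna5 at 200.01, Sema3c at 55.4, Efna1 at 55.2, Epha4 at 49.2, Sema6a at 18.1 and Slit2 at 16.7 TPM. These values have no replicate, so neighbours in each order cannot be ranked beyond the libraries themselves. Ephrin TPM summed to 109.6 in CD36+ cells, 82.4 in double-negative cells and 270.1 in PDPN+ cells, and Eph receptor TPM to 41.5 in CD36+ cells, 26.9 in double-negative cells and 118 in PDPN+ cells. Semaphorins summed to 169 in CD36+ cells, 155 in double-negative cells and 106 in PDPN+ cells, and plexins to 73.1 in CD36+ cells, 72.4 in double-negative cells and 28.0 in PDPN+ cells. Robo receptors summed to 44.1 in CD36+ cells, 59.6 in double-negative cells and 18.4 in PDPN+ cells, and Slits to 3.12 in CD36+ cells, 2.45 in double-negative cells and 22.2 in PDPN+ cells. The Robo sums by CPM were level, at 66.7 in CD36+ cells, 68.8 in double-negative cells and 67.8 in PDPN+ cells. Netrins summed to 6.71 in CD36+ cells, 0.278 in double-negative cells and 6.28 in PDPN+ cells, and Unc5 receptors to 13.7 in CD36+ cells, 5.33 in double-negative cells and 3.39 in PDPN+ cells. The netrin sums by CPM were 33.9 in CD36+ cells, 1.25 in double-negative cells and 9.55 in PDPN+ cells. Unc5c, with 258 counts in CD36+ cells, was 85.0% of the Unc5 TPM there, and by CPM the Unc5 sums were 13.9 in CD36+ cells, 21.1 in double-negative cells and 11.6 in PDPN+ cells. Efna5 alone was 74.0% of the ephrin TPM of the PDPN+ library, while Efna1 was 77.7% in CD36+ cells and 65.7% in double-negative cells.

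**Figure D3:**
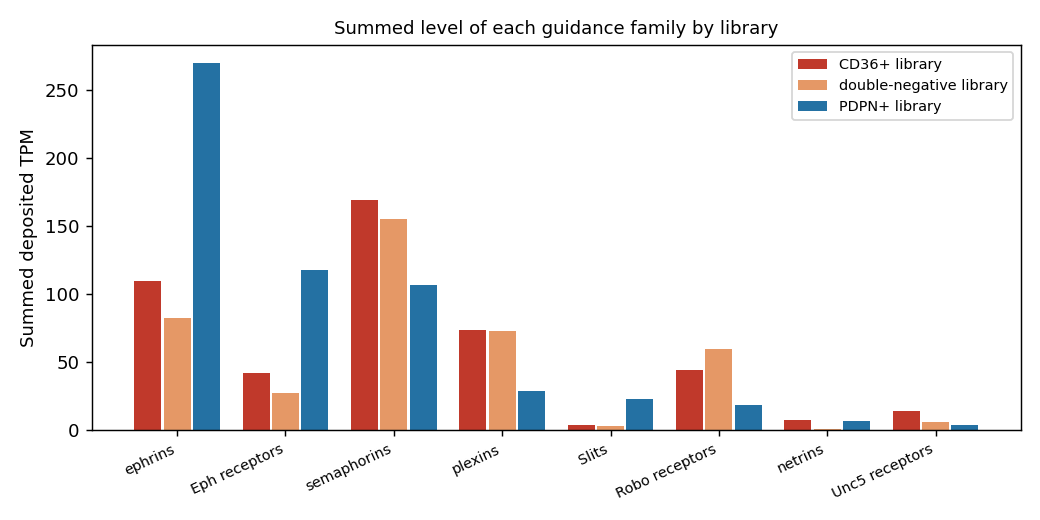
Deposited TPM summed over the members of each guidance family, with 1 bar per library and no replicate error. The ephrin bar of the PDPN+ library is the tallest, at 270.1 TPM, and its plexin bar, at 28.0 TPM, is the lowest of that family.

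Counts over TPM give the mean effective length of the transcripts behind each gene's reads, an estimate of the transcript mix that the choice of genes did not use. Among guidance genes with at least 100 counts in both libraries, the effective lengths were at least 1.5-fold apart for 3 of 24 in the CD36+ against the PDPN+ library, beside 13.1% of all 9908 such genes. The numbers were 5 of 23 for the double-negative against the PDPN+ library, beside 13.0%, and 4 of 24 for the CD36+ against the double-negative library, beside 12.9%. Ephb2 stood at 10723 bases in double-negative cells, near its longest annotated transcript of 10902 bases, against 3785 in PDPN+ cells. Slit2 stood at 3141, 7355 and 4051 bases in CD36+, double-negative and PDPN+ cells. Robo2 stood at 2185 bases in double-negative cells and 3619.9 in PDPN+ cells. Slit3 stood at 5037 bases in CD36+ cells and 2933 in PDPN+ cells. Sema4d stood at 1263 bases in CD36+ cells and 2916 in PDPN+ cells, and at 460 in double-negative cells on 99 counts. Sema6a was shorter in double-negative cells, at 3364 bases, than in CD36+ and PDPN+ cells, at 4939 and 5349.8 bases. Unc5c stood at 409.9 bases in CD36+ cells, against 4759.8 and 7432 in the double-negative and PDPN+ libraries, while its longest transcript has 9646 bases. Unc5c stood at 11.7 TPM in CD36+ cells, against 0.600 and 0.285 TPM in the double-negative and PDPN+ libraries. Plxnb2 stood at 626 to 1008 bases in all 3 libraries, against a longest transcript of 6497 bases. Robo4 stood at 1362 bases in CD36+ cells and 875 in double-negative cells, against a longest transcript of 4952 bases. The places of Robo4 and Plxnb2 in the TPM orders above rest on these short lengths. By the deposited length column, which fell below the shortest annotated transcript of some genes, 3 of 24, 2 of 23 and 5 of 24 were apart in the same 3 comparisons, beside 9.82%, 9.91% and 9.40% of all genes. They included Sema6d at 2.59-fold between the CD36+ and PDPN+ libraries, whose effective lengths were 5844 and 5974 bases.

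**Figure D4:**
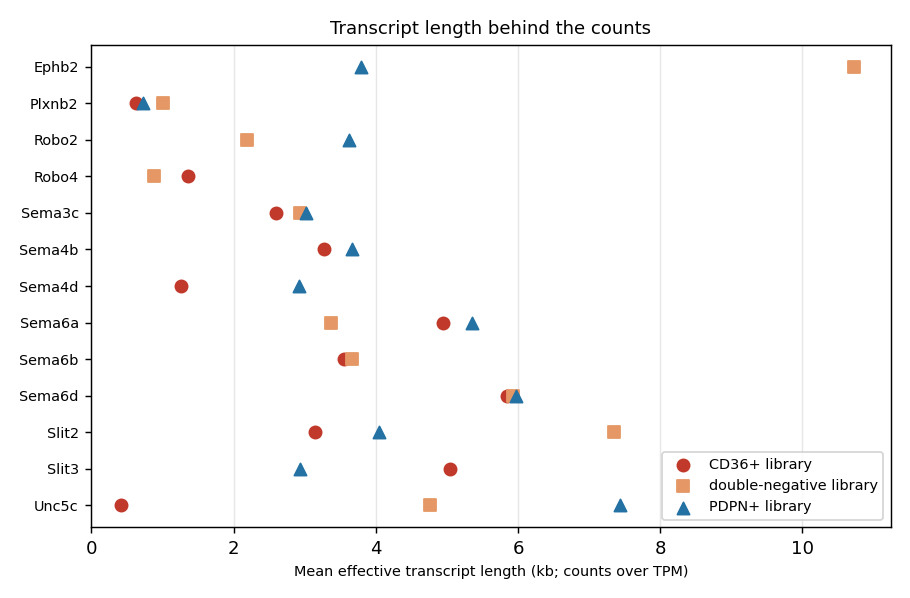
Mean effective transcript length in kb, from counts over TPM, for the guidance genes at least 1.5-fold apart between any pair of libraries by this measure or by the deposited length, with 1 symbol for each library holding at least 100 counts. The double-negative library stands apart for Ephb2 and Slit2, and the CD36+ library for Unc5c.

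Guidance receptors work through co-receptors and cytoplasmic effectors, for which a list of 109 partner genes was used, 108 of them in the tables. In the CD36+ against the PDPN+ library 72 reached 10 CPM in either, of which 18 (25%) were at least 4-fold higher, beside 15.1% of all genes, and 15 (20.8%) lower, beside 17.6%, with a median log2 ratio of 0.35. Against the PDPN+ library the double-negative library had 16 of 72 higher (22.2%, beside 14.9% of all genes) and 12 lower (16.7%, beside 19.3%), with a median of 0.04. In the CD36+ against the double-negative library 3 of 66 were higher (4.55%, beside 12.2%) and 7 lower (10.6%, beside 11.9%), with a median of 0.27. The semaphorin co-receptor Nrp2 stood at 605 CPM in CD36+ cells, 309.9 in double-negative cells and 30.5 in PDPN+ cells, and Nrp1 at 262 CPM in CD36+ cells, 109.5 in double-negative cells and 24.8 in PDPN+ cells. Both were higher in CD36+ cells, by 19.8-fold (19.0 to 20.7) and 10.6-fold (10.1 to 11.1), and in double-negative cells, by 10.2-fold (9.71 to 10.6) and 4.42-fold (4.19 to 4.66). The adaptor Nck1, which links Eph receptors to actin, stood at 578 CPM in CD36+ cells, 549 in double-negative cells and 69.5 in PDPN+ cells. Rnd1, a GTPase bound by plexins, stood at 390.5 CPM in CD36+ cells, 260.4 in double-negative cells and 14.9 in PDPN+ cells, and Dpysl2, a collapsin response mediator, at 764 CPM in CD36+ cells, 474 in double-negative cells and 38.4 in PDPN+ cells. The Src family kinases Fyn and Lyn were 12.4-fold (11.6 to 13.2) and 48.4-fold (39.7 to 59.7) higher in CD36+ than in PDPN+ cells. Fyn stood at 170.6 CPM in CD36+ cells, 166.1 in double-negative cells and 13.8 in PDPN+ cells, and Lyn at 65.5, 63.5 and 1.35 CPM in the same order. Src itself stood at 0 counts in CD36+ cells, 2.02 in double-negative cells and 10.9 in PDPN+ cells.

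Ablim1, an actin-binding protein, was 31.3-fold (29.6 to 33.2) higher in CD36+ than in PDPN+ cells, and Srgap2, a GTPase-activating protein of Slit and Robo signalling, was 10.2-fold (9.07 to 11.5) higher. Ablim1 stood at 504 CPM in CD36+ cells, 431 in double-negative cells and 16.1 in PDPN+ cells, and Srgap2 at 42.8, 48.4 and 4.19 CPM in the same order. L1cam, Grb10, Arhgef15, Rgmb and Flrt2 were at least 4-fold higher in both Cdh5-positive libraries than in PDPN+ cells. Yes1, Fes, Srgap1 and Ablim3 were so in CD36+ cells, and Gipc2 and Psen2 in double-negative cells. Lower than in PDPN+ cells in both were Chl1, Src, Tiam1, Rhod, Rras2, Mical2, Pak1, Ntng1, Bmp7 and Vegfa. The direction of Src between the double-negative and PDPN+ libraries turned by TPM, at 6.57 against 4.96 TPM. Ptk7, Abl1, Vav3, Tns3 and Flrt3 were lower in CD36+ cells, and Vasp and Dapk1 in double-negative cells. Flrt3, a ligand of Unc5 receptors, stood at 29.6 CPM in CD36+ cells, 165 in double-negative cells and 267 in PDPN+ cells, and Vav3, an Eph receptor effector, at 0.0169 CPM in CD36+ cells, 53.5 in double-negative cells and 99.9 in PDPN+ cells. Between the Cdh5-positive libraries, Fes, Vasp and Ablim3 were higher in CD36+ cells, and Ptk7, Vav3, Rras, Tns3, Arhgap39, Ntng1 and Flrt3 lower. Some of these partner ratios were smaller by TPM and others, such as that of Vegfa, larger. Arhgap39 stood at 12.5 TPM in CD36+ cells and 15.7 in double-negative cells. Yes1 stood at 163 TPM in CD36+ cells and 53.5 in PDPN+ cells, and Srgap2 at 19.3 and 5.56. Psen2 stood at 37.9 TPM in double-negative cells and 12.1 in PDPN+ cells. The partners with the highest mean TPM were Cfl1, Nck1, Rac1, Cdc42, Rap1b and Itgb1. Cfl1, the actin-severing cofilin, stood at 746 TPM in CD36+ cells, 684 in double-negative cells and 1079.7 in PDPN+ cells, and Rac1 at 547 TPM in CD36+ cells, 296 in double-negative cells and 220.1 in PDPN+ cells.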

How the data were processed

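Bulk RNA sequencing of 3 libraries was used, 1 for each sorted population, grouped by the labels. Per the labels' protocols, RNA was isolated with either of 2 kits, and libraries were made with a low-input kit or with a stranded kit that removes ribosomal RNA. The labels do not say which kit served which library, so chemistry and population cannot be told apart. The authors deposited an estimated count, often fractional, for each gene, and TPM. The submitters' processing notes name Salmon 0.9.1 and mm10. Annotation release and strand option were not given in the sources used here. In that table, the deposited length column lay below the shortest annotated transcript for 13, 17 and 19 of 65 guidance genes in the CD36+, double-negative and PDPN+ libraries, so lengths were recovered from counts over TPM, scaled on genes with 1 annotated transcript.

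Symbols and coordinates came from GENCODE M21 (mm10), matched without version for 52566 of 52661 identifiers. Counts were rounded and scaled with TMM over 3 libraries (edgeR 4.0.16, R 4.3.3), with a prior count of 2 in log2 ratios. Simulated counts with 200 changed genes were used to check the calculation of the ratios. So few changed genes cannot show how TMM scaling behaves here, where 32.7% of genes were apart between the CD36+ and PDPN+ libraries. Exact (Clopper-Pearson) 95% intervals and floors of 3 counts cover counting error only, since reads may be PCR copies. The floor was 0.0507, 0.0594, 0.0406 CPM in the CD36+, double-negative and PDPN+ libraries in turn. Genes with 10 CPM in any library were named, and partner genes at least 4-fold apart or with the 6 highest mean TPM. DESeq2 1.42.0 size factors, other scalings, prior counts, level minima, TPM with a pseudocount of 0.05 and counts that were not rounded were alternatives. The members and lists were chosen with earlier results of these data known. Python 3.11.15, numpy 2.4.6, pandas 2.3.3, scipy 1.17.1, biopython 1.88 and matplotlib 3.10.9 were used.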

Additional observations from a re-analysis of the deposited data

How the results depend on the processing

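The comparisons are given in the order CD36+ over PDPN+, double-negative over PDPN+ and CD36+ over double-negative. The numbers of guidance genes at least 4-fold apart, 17, 16 and 5, moved by more than 1.5 times only with the level minimum and, in the last comparison, with TPM (2). They were 27, 29 and 15 with no minimum, 27, 28 and 14 at 1 CPM and 11, 8 and 3 at 30 CPM, since other numbers of genes were then eligible. Total counts shifted all log2 ratios by -0.40, -0.23 and -0.17, upper quartile scaling by 0.27, 0.28 and -0.01, and TPM moved their medians by -0.48, -0.36 and -0.13. The median log2 ratio of the guidance genes was -1.17, -1.14 and 0.44 with total counts, and -0.093 and -0.32 with upper quartile scaling in the comparisons against the PDPN+ library. By TPM it was -0.64 in the second comparison and turned to 0.48 in the first, over 20 genes with at least 10 TPM in place of 27. Over the genes with 10 CPM, an alternative added after seeing the data, TPM gave -0.45, -0.93 and 0.43, so the turned sign came with the other choice of genes. Genes with transcript lengths at least 1.5-fold apart between the double-negative and PDPN+ libraries numbered 2 by the deposited length and 5 by effective length, an alternative added after seeing the data. Of 87 gene and comparison pairs, 6 turned direction in any of 6 settings, and none of the 38 pairs at least 4-fold apart did. A turn was hardly possible for those 38, since a 4-fold ratio is far wider than the median shifts above. By TPM, 2, 2 and 1 of them fell under the 4-fold line in the 3 comparisons. Another 2 and 1 pairs passed that line by TPM in the comparisons against the PDPN+ library. No paired analysis was possible because each population had 1 library. Genes under 1 CPM rest on few counts.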
